A study of Mus musculus with 6 samples.

Results

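The MAP kinase phosphatases of the Dusp (dual-specificity phosphatase) family were followed in the medial prefrontal cortex of 3 ZnR mice (mice 3, 7 and 11) and 3 control mice (mice 1, 5 and 9). The 9 genes, of 18194 with a probe set of their own symbol, were Dusp1, Dusp4, Dusp5, Dusp6, Dusp7, Dusp8, Dusp10, Dusp14 and Dusp16, and every probe set annotated to exactly 1 of these symbols was taken, whatever its values. This gave 15 of the 45101 probe sets on the Affymetrix Mouse430_2 array, where a probe set is a group of short probes that reads a stretch of a transcript. All 6 animals were male 129S1/SvImJ mice of 8 to 10 weeks, had undergone fear extinction training and were killed 2 h later. The strain is inbred and is known for poor fear extinction. The groups differed in diet alone, per the labels, which call the tested diet ZnR and describe the mice as zinc dieted; the labels used here do not say what it contained. Each array held the RNA of the prefrontal cortex of 1 mouse, both hemispheres together.

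MAP kinases carry signals from growth factor receptors, synaptic calcium and stress to the nucleus, and they are active only while phosphorylated on a threonine and a tyrosine. Dusp phosphatases remove both phosphates and so end the signal. Several of them are themselves switched on by the signal they end, which makes their transcripts both a brake on ERK, JNK and p38 kinases and a trace of recent activity. In the cortex, ERK signalling is known for its part in synaptic plasticity and in the learning and extinction of fear.

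Promoter sequence is shown for the 3 genes whose promoter window holds a sequence match for the activity-driven factors CREB or SRF. RefSeq (build GRCm38.p6) gave a promoter window for 8 of the 9 genes, and Dusp4 had none in the table used. The windows ran from 250 bases before to 50 after the start, and the bases before the start are printed 5′ to 3′ on the gene's strand. Dusp1 (chr17:26508473-26508722, minus strand) and Dusp8 (chr7:142095285-142095534, minus strand) hold the cAMP response element TGACGTCA, and Dusp5 (chr19:53528895-53529144, plus strand) holds a pair of adjoining CArG boxes, the core of the serum response element. Capitals mark these matches.
Dusp1: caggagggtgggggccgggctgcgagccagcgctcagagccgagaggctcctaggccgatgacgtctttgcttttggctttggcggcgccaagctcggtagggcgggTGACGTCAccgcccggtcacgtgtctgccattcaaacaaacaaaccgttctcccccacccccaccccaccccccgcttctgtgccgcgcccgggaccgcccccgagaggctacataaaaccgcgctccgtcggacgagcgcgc
Dusp5: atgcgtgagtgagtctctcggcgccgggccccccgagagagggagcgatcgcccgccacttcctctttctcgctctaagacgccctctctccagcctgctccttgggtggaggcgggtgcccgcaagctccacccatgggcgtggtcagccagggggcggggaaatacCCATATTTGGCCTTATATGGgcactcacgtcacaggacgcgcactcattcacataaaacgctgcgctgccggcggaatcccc
Dusp8: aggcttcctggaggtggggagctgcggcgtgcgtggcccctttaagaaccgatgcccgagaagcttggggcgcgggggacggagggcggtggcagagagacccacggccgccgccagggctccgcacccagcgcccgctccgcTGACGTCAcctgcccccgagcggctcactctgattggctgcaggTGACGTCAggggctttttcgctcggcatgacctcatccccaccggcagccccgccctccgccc
The match in Dusp1 lies 136 to 143 bases before the start, the matches in Dusp8 lie 56 to 63 and 100 to 107 bases before it, and those in Dusp5 cover bases 63 to 72 and 73 to 82 before it. Both strands were searched, and since both motifs are palindromic the strands give the same matches. Among all 32851 promoter windows of the table, 1.79% held TGACGTCA and 1.63% held a CArG box. The ETS site CCGGAAGT, found in 3.89% of windows, and the EGR site GCGGGGGCG, found in 2.91%, were in none of the 8 windows. A match describes the letters and shows no binding. Whether the matches bear on how the genes varied between mice was not tested.

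Of the 15 probe sets, 13 passed a filter on low values (log2 above 4 on at least 3 of the 6 arrays) and entered the test, and they covered all 9 genes. Values are log2 expression as deposited, so a difference of 1 is a doubling, and differences are ZnR minus control with moderated standard errors from limma. In limma none of the 13 passed the threshold of 0.05 after Benjamini-Hochberg adjustment, where 373 of all 25381 probe sets tested, or 1.47%, did (1.01% lower and 0.461% higher in ZnR mice). At an unadjusted p under 0.05 there were 4 of 13, and 17% over all probe sets. The 4 were Dusp6, Dusp10 1417164_at, Dusp7 1427416_x_at and Dusp7 1460393_a_at. On average 10 of the 13 were lower in ZnR mice and 3 higher, with 46.4% lower over all. Dusp7 and Dusp8 gave 3 probe sets each, so these are not counts of genes. With probe sets averaged per gene, Dusp8 (0.0034), Dusp10 and Dusp16 were higher in ZnR mice and the other members lower. The median difference was -0.15 for the Dusp probe sets and 0.02 over all, and the median absolute difference was 0.27 against 0.12. In 1 of the 13 all ZnR mice lay below all control mice (10.6% of all probe sets) and in 2 all lay above (13.1%).

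The arrays had medians between 4.46 and 4.52 over all probe sets. Probe sets that read 18S ribosomal RNA as a control averaged 8.44 in ZnR mouse 3 and 9.09 in control mouse 1, below 10.9 to 12.4 in the other 4 mice, and this low-18S pair is a possible batch, so values within the pair and among the other mice are given beside the pooled ones. In the same arrays the 7 measured markers of cortical excitatory neurons were all lower in every ZnR mouse than in any control, 5 of them past the threshold. Their mean, centred on the 6 mice, ran from -0.51 to -0.34 in ZnR mice and from 0.37 to 0.47 in controls. Lists of single cortical layers differed from this: of 8 upper layer markers 2 fell and 7 were lower on average (median -0.40), while of 6 deep layer markers none passed and 5 were higher on average (median 0.10). Of 10 striatal neuron markers, 3 rose (mean difference of the list 0.59), and of 6 choroid plexus and ependymal markers, 2 rose (1.07). All 9 astrocyte markers were higher on average, 1 of them past the threshold (median 0.13). All 8 oligodendrocyte and 6 oligodendrocyte precursor markers were also higher on average, none past the threshold (medians 0.36 and 0.35). Of 7 microglia markers none passed and 6 were lower (median -0.10). Of 8 interneuron markers 1 fell, with 5 higher and 3 lower on average. The part of these markers in the Dusp values was not tested, and in whole tissue fewer cells of a type cannot be told apart from less RNA per cell.

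**Figure D1:**
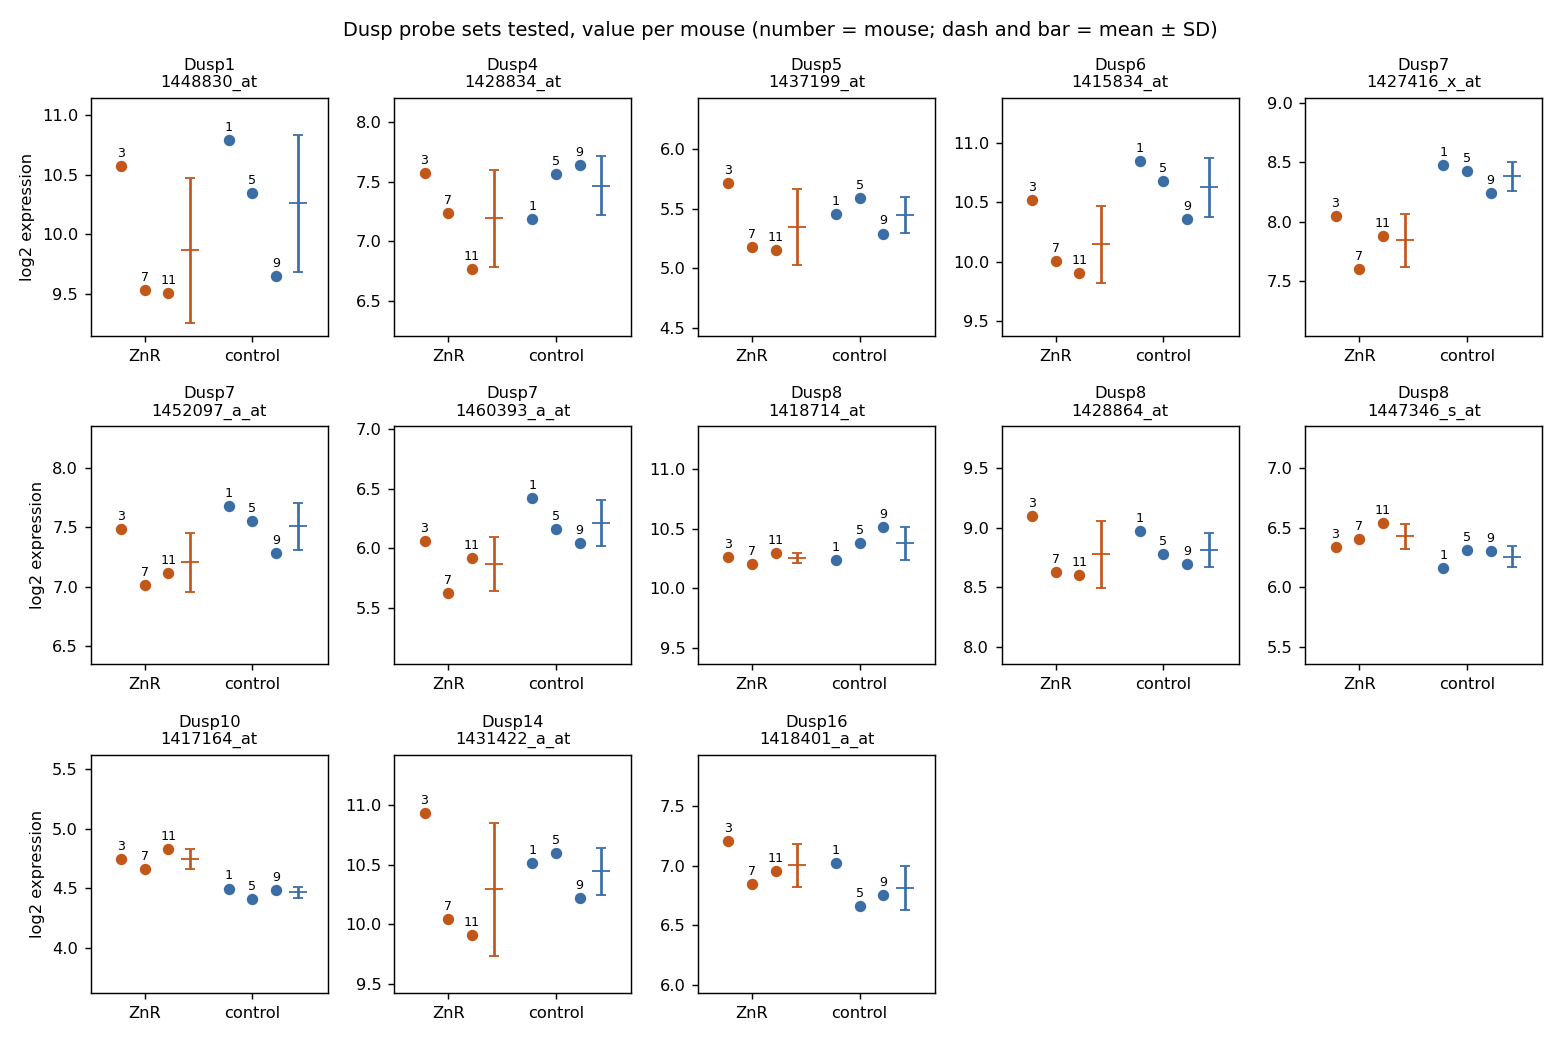
Log2 expression (y axes, each spanning 2 log2 units) of the 13 Dusp probe sets tested, with 1 point per mouse labelled by mouse number, ZnR mice left of control mice, and the mean ± SD of each diet beside the points. ZnR mouse 3 lay above ZnR mice 7 and 11 for all but Dusp8 1418714_at, Dusp8 1447346_s_at and Dusp10 1417164_at. The diets did not overlap for Dusp7 1427416_x_at, Dusp8 1447346_s_at and Dusp10 1417164_at.

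Dusp1, Dusp4 and Dusp5 are the inducible phosphatases of the nucleus. Dusp1, an immediate early gene whose product acts on p38, JNK and ERK, measured 10.57, 9.53 and 9.50 in ZnR mice 3, 7 and 11, against 10.79, 10.35 and 9.65 in control mice 1, 5 and 9. A high set of mice (ZnR mouse 3 and control mice 1 and 5) and a low set (ZnR mice 7 and 11 and control mouse 9) crossed the diets, which overlapped widely. The mean was 9.87 ± 0.61 in ZnR mice and 10.26 ± 0.58 in controls (SD, n = 3 each), a difference of -0.39 ± 0.36 SE with a 95% interval from -1.23 to 0.45 (limma adjusted p = 0.64). The interval reaches from a level more than 2-fold lower to a higher one. The difference was -0.22 within the low-18S pair and -0.48 among the other mice. It moved to -0.74 without ZnR mouse 3 and to -0.13 without control mouse 1, so single mice set its size.

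Dusp4, which acts on ERK and JNK in the nucleus, measured 7.58, 7.24 and 6.77 in ZnR mice 3, 7 and 11, against 7.18, 7.57 and 7.64 in control mice 1, 5 and 9. ZnR mouse 11 was the lowest and control mouse 1 the next lowest, and the diets overlapped. The difference was -0.27 ± 0.21 SE (95% interval from -0.77 to 0.23, limma adjusted p = 0.579). The sign differed between the low-18S pair (0.39) and the other mice (-0.60). With 1 mouse left out it ran from -0.46 without ZnR mouse 3 to -0.06 without ZnR mouse 11.

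Dusp5, which is specific for ERK and holds it in the nucleus, measured 5.71, 5.17 and 5.15 in ZnR mice 3, 7 and 11, against 5.46, 5.59 and 5.29 in control mice 1, 5 and 9. ZnR mouse 3 was the highest of all and the other ZnR mice the lowest. The difference was -0.10 ± 0.17 SE (95% interval from -0.49 to 0.28, limma adjusted p = 0.81), with 0.25 within the low-18S pair and -0.28 among the other mice. With 1 mouse left out it ran from -0.28 without ZnR mouse 3 to -0.0029 without ZnR mouse 11.

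Dusp6 and Dusp7 are the cytoplasmic phosphatases directed at ERK, and by the probe set of highest mean they gave the most negative differences of the family. Dusp6, a feedback inhibitor that ERK signalling itself induces, measured 10.52, 10.01 and 9.91 in ZnR mice 3, 7 and 11, against 10.84, 10.68 and 10.36 in control mice 1, 5 and 9. ZnR mice 7 and 11 lay below every control, while ZnR mouse 3 lay above control mouse 9. The mean was 10.14 ± 0.33 in ZnR mice and 10.63 ± 0.25 in controls (SD, n = 3 each). The difference of -0.48 ± 0.19 SE, 1.40-fold lower on average, had a 95% interval from -0.92 to -0.04 before any correction and did not pass over all probe sets (limma's unadjusted p = 0.0354, adjusted p = 0.253). Within the low-18S pair it measured -0.33, and -0.56 among the other mice.

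Dusp7 was read by 3 probe sets, which share the gene and are no independent replicates. Its probe set 1427416_x_at measured 8.05, 7.60 and 7.88 in ZnR mice 3, 7 and 11, against 8.48, 8.43 and 8.24 in control mice 1, 5 and 9. All ZnR mice lay below all controls, with ZnR mouse 7 the lowest. The mean was 7.84 ± 0.22 in ZnR mice and 8.38 ± 0.12 in controls (SD). The difference of -0.54 ± 0.13 SE (95% interval from -0.84 to -0.23) had the smallest p of the family (limma's unadjusted p = 0.0039, adjusted p = 0.0977). With 1452097_a_at the difference was -0.30 ± 0.15 SE (limma adjusted p = 0.373), and with 1460393_a_at it was -0.34 ± 0.14 SE (limma adjusted p = 0.289). In both of these ZnR mouse 3 lay above control mouse 9, so the diets overlapped. Within the low-18S pair the 3 probe sets measured -0.43, -0.19 and -0.36, and among the other mice -0.59, -0.36 and -0.33. The third, 1460393_a_at, was -0.22 without ZnR mouse 7. The ending _x_at marks a probe set that may also bind related transcripts, and which transcripts those are was not tested. Averaged over its probe sets, Dusp7 differed by -0.39 ± 0.13 SE (limma adjusted p = 0.141 over 11749 genes). The excitatory neuron markers named above were lower in the same mice by a mean of -0.80, which was -0.98 within the low-18S pair and -0.72 among the other mice.

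**Figure D2:**
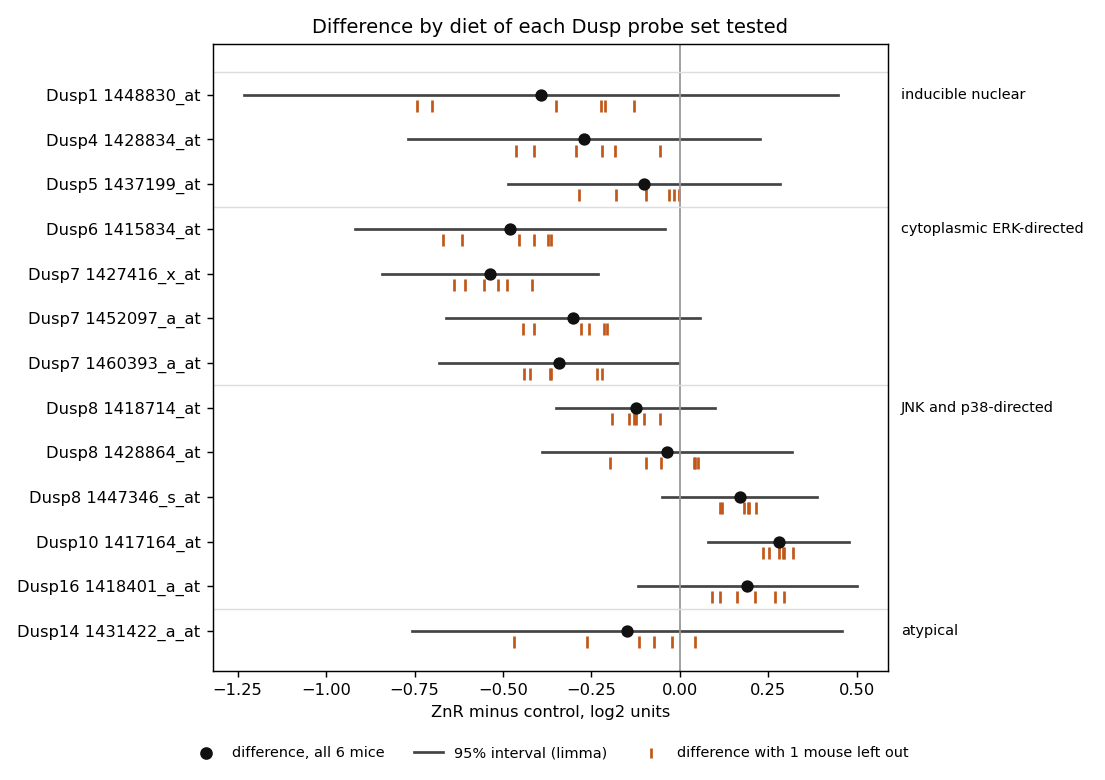
Difference by diet (x axis, ZnR minus control in log2 units) for the 13 Dusp probe sets tested, ordered by role. Black points are differences over all 6 mice, lines their 95% limma intervals without multiple-test adjustment, and orange ticks the differences with 1 mouse left out. Dusp1, Dusp4, Dusp5, Dusp6, Dusp7 and Dusp8 1418714_at lie left of 0 in every fit shown, Dusp8 1447346_s_at, Dusp10 and Dusp16 right of it, and the ticks of Dusp14 and of Dusp8 1428864_at fall on both sides.

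Dusp8, Dusp10 and Dusp16 dephosphorylate the stress kinases JNK and p38. Dusp10, by its probe set 1417164_at, measured 4.74, 4.66 and 4.83 in ZnR mice 3, 7 and 11, against 4.50, 4.41 and 4.49 in control mice 1, 5 and 9. All ZnR mice lay above all controls, at a low signal close to the filter. The mean was 4.75 ± 0.08 in ZnR mice and 4.47 ± 0.05 in controls (SD). The difference was 0.28 ± 0.09 SE (95% interval from 0.08 to 0.48, limma's unadjusted p = 0.0121, adjusted p = 0.156). Within the low-18S pair it measured 0.24, and 0.30 among the other mice. The other Dusp10 probe set, 1417163_at, stayed below the filter with 2.91 to 3.05 in ZnR mice and 2.84 to 3.03 in controls and was not tested.

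Dusp16 1418401_a_at measured 7.20, 6.85 and 6.96 in ZnR mice 3, 7 and 11, against 7.02, 6.66 and 6.76 in control mice 1, 5 and 9. The mice of the low-18S pair were the highest of their diets, and control mouse 1 lay above ZnR mice 7 and 11. The difference of 0.19 ± 0.13 SE did not pass (95% interval from -0.12 to 0.50, limma adjusted p = 0.525), with 0.18 within the pair and 0.20 among the other mice. Leaving out 1 mouse at a time gave 0.09 (ZnR mouse 3) to 0.30 (control mouse 1). Its probe set 1440615_at ran from 2.93 to 3.36 in ZnR mice and from 2.78 to 3.13 in controls, below the filter.

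The 3 probe sets of Dusp8, a brain-rich phosphatase, went different ways. The first, 1418714_at, measured 10.26, 10.21 and 10.29 in ZnR mice 3, 7 and 11, against 10.24, 10.38 and 10.52 in control mice 1, 5 and 9, a difference of -0.12 ± 0.10 SE (limma adjusted p = 0.57). Leaving out control mouse 9 brought it to -0.06, and leaving out control mouse 1 to -0.19. By contrast 1447346_s_at was higher in every ZnR mouse, with 6.34, 6.40 and 6.54 in ZnR mice 3, 7 and 11, against 6.16, 6.31 and 6.30 in control mice 1, 5 and 9 (0.17 ± 0.09 SE, limma adjusted p = 0.413), and it was 0.11 without ZnR mouse 11. Between them 1428864_at measured -0.04 ± 0.15 SE (limma adjusted p = 0.939), with 9.10 in ZnR mouse 3 and 8.97 in control mouse 1 above 8.60 to 8.77 in the other mice. Averaged over its probe sets Dusp8 differed by 0.0034 ± 0.07 SE (95% interval from -0.17 to 0.17), and the direction depends on the probe set.

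Dusp14 is an atypical member, a small phosphatase that lacks the kinase-docking domain of the others. It measured 10.94, 10.04 and 9.91 in ZnR mice 3, 7 and 11, against 10.52, 10.60 and 10.22 in control mice 1, 5 and 9. As with Dusp5, ZnR mouse 3 was the highest of all mice and ZnR mice 7 and 11 the lowest. The SD was 0.56 among ZnR mice and 0.20 among controls, and the difference was -0.15 ± 0.26 SE (95% interval from -0.76 to 0.46, limma adjusted p = 0.824). Within the low-18S pair it measured 0.42, among the other mice -0.43. With 1 mouse left out it ran from -0.47 without ZnR mouse 3 to 0.04 without ZnR mouse 11.

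How much of a gene's variation lay between the diets differed widely within the family. As a share of the total sum of squares over the 6 mice, the split by diet held 86.0% for Dusp10, 76.8%, 39.97% and 50.1% for Dusp7 1427416_x_at, 1452097_a_at and 1460393_a_at, 50.8% for Dusp6, 35.8%, 0.937% and 54.1% for Dusp8 1418714_at, 1428864_at and 1447346_s_at, 28.7% for Dusp16, 19.5% for Dusp4, 14.1% for Dusp1, 5.87% for Dusp5 and 4.53% for Dusp14. The median over all probe sets tested was 22.9%. The split between the low-18S pair and the other mice held 86.8% for Dusp8 1428864_at, 69.5% for Dusp1, 65.8% for Dusp16, 51.4% for Dusp14, 40.8% for Dusp5 and 38.4% for Dusp6, with a median over all of 15.3%. The same split held 11.96%, 45.6% and 36.1% for the Dusp7 probe sets in the order above, 18.7% and 33.8% for Dusp8 1418714_at and 1447346_s_at, 1.33% for Dusp4 and 0.474% for Dusp10. Averaged by role and centred on each gene, the inducible nuclear genes measured 0.36, -0.28 and -0.46 in ZnR mice 3, 7 and 11, against 0.21, 0.24 and -0.07 in control mice 1, 5 and 9. The cytoplasmic ERK-directed genes measured 0.03, -0.44 and -0.36 in ZnR mice 3, 7 and 11, against 0.41, 0.30 and 0.05 in control mice 1, 5 and 9. There every ZnR mouse lay below every control, with ZnR mouse 3 and control mouse 9 almost level. This average takes Dusp7 by 1427416_x_at alone, its probe set of highest mean. On the other Dusp7 probe sets, and for Dusp6, ZnR mouse 3 lay above control mouse 9.

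**Figure D3:**
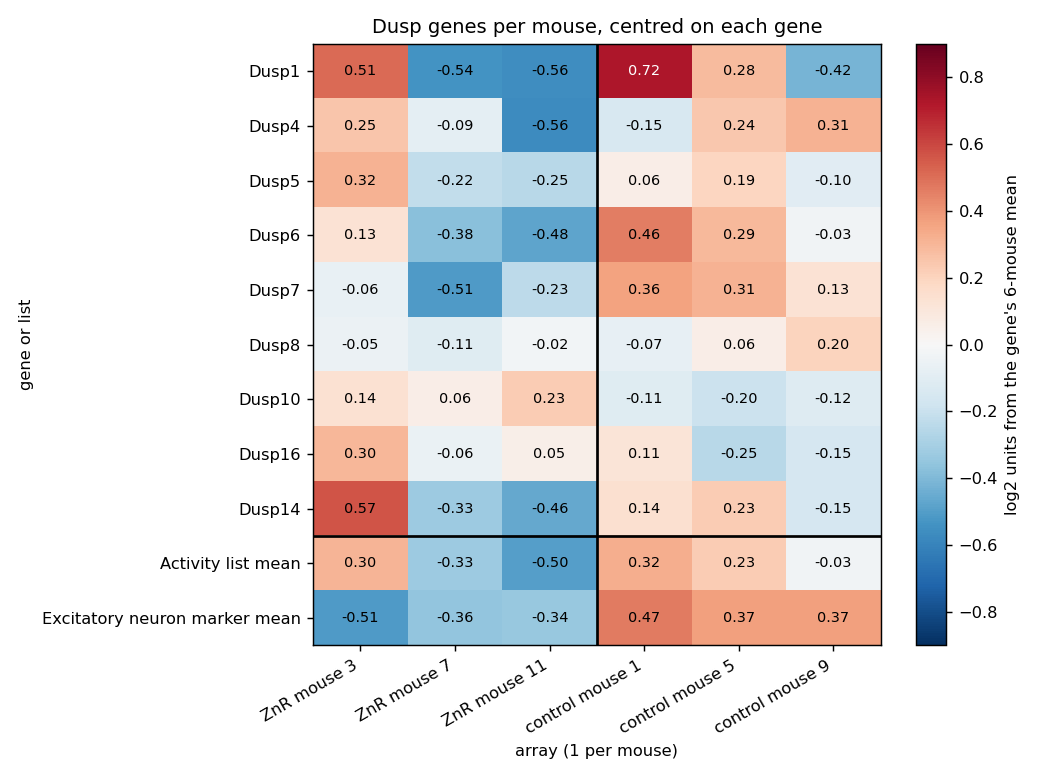
Log2 values per mouse, centred on each gene's mean over the 6 mice, for the 9 Dusp genes (probe set of highest mean), with the mean of the activity list and of the excitatory neuron markers below the line. Columns are mice, ZnR left and control right of the vertical line, and red is above and blue below the gene's mean. Dusp1, Dusp4, Dusp5, Dusp6, Dusp14 and the activity list are positive in ZnR mouse 3 and control mouse 5 and negative in ZnR mice 7 and 11. The excitatory markers split by diet.

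Because several Dusp genes are induced by neuronal activity, their values were set against the mean of 23 measured activity genes such as Fos, Arc, Npas4 and Egr1, a list that holds no Dusp gene. That mean, centred on the 6 mice, was 0.30, -0.33 and -0.50 in ZnR mice 3, 7 and 11, against 0.32, 0.23 and -0.03 in control mice 1, 5 and 9. Of 9 relations computed over the 6 mice, that of Dusp6 had Pearson r = 0.96 (exact permutation p = 0.00417, adjusted over the 9 p = 0.0375) and Spearman rho = 0.943 (exact permutation p = 0.0167, adjusted p = 0.075). Leaving out the mice farthest from the median of the activity mean, ZnR mice 7 and 11, gave r = 0.78 over the other 4. Mice were permuted across both diets, and Dusp6 (-0.48) and the activity mean (-0.35) were both lower in ZnR mice. The permutation p therefore does not separate covariation between mice from a shared difference by diet. Dusp14 had r = 0.918 (exact permutation p = 0.0167, adjusted p = 0.0542) and rho = 0.829 (exact permutation p = 0.0583, adjusted p = 0.131), and Dusp5 had r = 0.901 (exact permutation p = 0.0264, adjusted p = 0.0594) and rho = 0.829 (exact permutation p = 0.0583, adjusted p = 0.131). Without the same mice Dusp14 had r = 0.781 and Dusp5 r = 0.758. Dusp1 put the 6 mice in the same order as the activity mean, with rho = 1. The exact permutation p was 0.00278, the smallest that 6 mice allow (adjusted p = 0.025). Its Pearson r was 0.925 (exact permutation p = 0.0181, adjusted p = 0.0542), and 0.989 without ZnR mice 7 and 11. Like that of Dusp6, its permutation p does not separate covariation between mice from a shared difference by diet. The Dusp1 values also fell into separate high and low sets, and 6 mice are too few to tell such a split from a graded relation. The same sets of mice also lay apart, with smaller gaps, for Dusp5, Dusp6 and Dusp14.

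For Dusp7 and Dusp10, each with a probe set on which the diets did not overlap, the relation did not pass. Dusp7 had r = 0.768 (exact permutation p = 0.0736, adjusted p = 0.133; rho = 0.771, exact permutation p = 0.103, adjusted p = 0.185), and r = 0.131 without ZnR mice 7 and 11, so the relation rests on them. Dusp10 had r = -0.574 (exact permutation p = 0.229, adjusted p = 0.295; rho = -0.371, exact permutation p = 0.497, adjusted p = 0.639), with 0.345 without them. Dusp4, Dusp8 and Dusp16 had r = 0.653, 0.0783 and 0.205 (exact permutation, adjusted p from 0.227 to 0.883) and rho = 0.257, -0.143 and 0.371 (adjusted p from 0.639 to 0.803). Over all 25381 probe sets tested, 320 or 1.26% had r above 0.9 with the activity mean, and 4 of the 9 members did (Dusp1, Dusp5, Dusp6 and Dusp14). These shares differ in unit, since members were counted as genes by their probe set of highest mean. The 25381 also include the probe sets of the activity genes that make up the mean. Both mice of the low-18S pair lay above the average of all mice in the activity mean. They also did so for Dusp1, Dusp5, Dusp6, Dusp14 and Dusp16, by the probe set of highest mean. For Dusp4, Dusp7, Dusp8 and Dusp10 they did not both lie above the average. A pair and 4 other mice are too few to give the relation within either set.

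**Figure D4:**
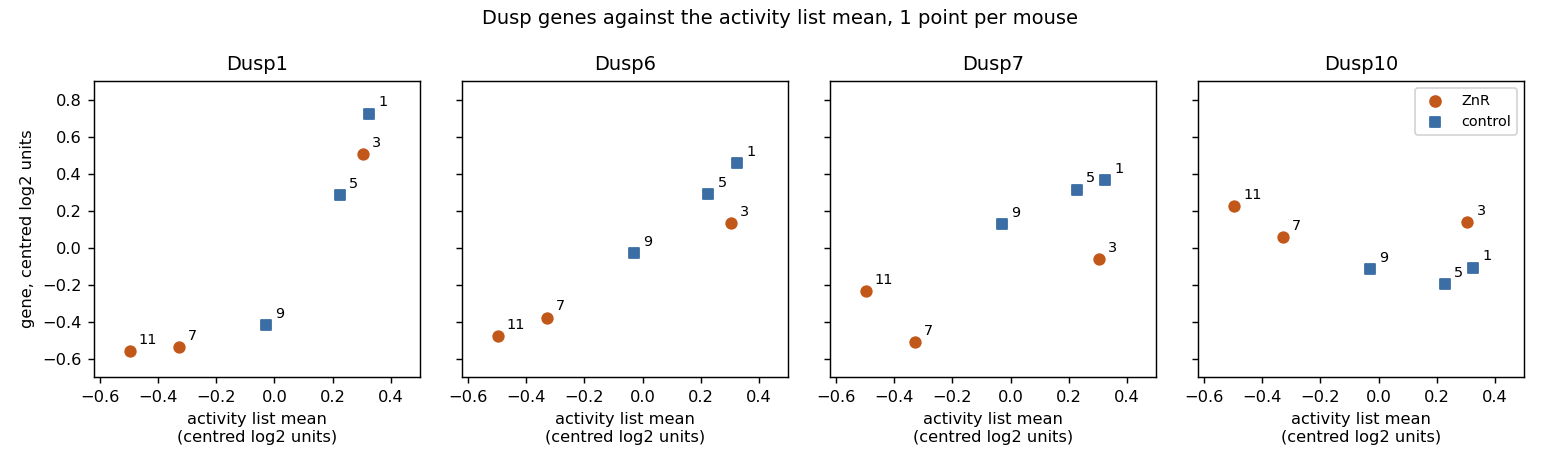
Centred log2 value of Dusp1, Dusp6, Dusp7 and Dusp10 (y axis) against the mean of the activity list (x axis, centred log2 units), with 1 point per mouse labelled by mouse number, ZnR as orange circles and control as blue squares. Dusp6 is higher where the activity mean is higher, except that ZnR mouse 3 lies below control mouse 5, Dusp1 falls into a low and a high set of 3 mice each, and in the Dusp7 panel ZnR mouse 3 lies below the controls of like activity.

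The genes most like the 3 most variable members were found by the root mean square difference between centred log2 profiles over the 6 mice. Nearest to Dusp1 were the cell cycle regulator gene Sertad1 (0.110 log2 units) and Gadd45b, a stress and activity response gene (0.115). Nearest to Dusp14 were Zbtb7a, which encodes a transcription factor (0.093), and Ccdc117 (0.104). Nearest to Dusp6 were the somatostatin receptor gene Sstr2 (0.050) and the sulfotransferase gene Sult2b1 (0.064). None of these 6 passed the threshold by diet (limma adjusted p from 0.217 to 0.886).

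The kinases that Dusp phosphatases act on, and the other genes of the pathway, were read from 8 lists with 122 entries, of which 99 had a tested probe set, each gene by its probe set of highest mean. Of the 99, 4 were lower in ZnR mice past the threshold and 0 higher, where 1.27% of all 11749 genes were called lower and 0.655% higher. The p38 beta kinase gene Mapk11, one of the kinase family that the JNK and p38 phosphatases act on, fell: it measured 6.01, 5.97 and 6.09 in ZnR mice 3, 7 and 11, against 6.92, 6.87 and 6.69 in control mice 1, 5 and 9. The difference was -0.80 ± 0.09 SE (limma adjusted p = 0.0207), and the diets did not overlap. Its other probe set, 1421925_at, was also lower in all ZnR mice but did not pass (-0.28 ± 0.09 SE, limma adjusted p = 0.174). The call of Mapk11 was lost without any of the 3 ZnR mice in turn and without control mouse 5.

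Of the 16 measured JNK and p38 cascade genes, Mapk11 fell and 15 did not pass, with 14 lower and 2 higher on average and a median of -0.10. The JNK gene Mapk8 measured -0.35 ± 0.08 SE (limma adjusted p = 0.0907) and the upstream kinase gene Map3k5 -0.35 ± 0.11 SE (limma adjusted p = 0.159). Of 10 ERK cascade kinases and scaffolds none passed, 5 were lower and 5 higher on average, and the median was -0.01. Among them Braf measured -0.11, Map2k5 -0.13 and Mapk7 0.17, and for Braf another probe set, 1435480_at, went the other way (0.16). The ERK-directed phosphatases Dusp6 and Dusp7 had lower averages beside ERK cascade genes with averages near 0, and neither set passed the test.

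Of the measured phosphatases outside the 9 genes, each by its probe set of highest mean, none passed either. Dusp2, Dusp9, Ptpn7, Dusp13, Dusp21, Dusp23 and Dusp27 were listed but had no tested probe set of their own symbol. Ptpn5, the striatum-enriched tyrosine phosphatase that acts on ERK and p38, measured 10.92, 10.58 and 10.89 in ZnR mice 3, 7 and 11, against 10.29, 10.30 and 10.17 in control mice 1, 5 and 9. It was higher in every ZnR mouse (0.54 ± 0.11 SE, limma adjusted p = 0.0647). Of the 10 striatal neuron markers 6 were also higher in every ZnR mouse than in any control, and their part in the Ptpn5 value was not tested. Ptprr measured 0.02 ± 0.14 SE. Of 10 atypical dual-specificity phosphatases none passed (median -0.02), and the smallest p-values were those of Dusp3 (-0.13 ± 0.09 SE), Dusp28 (0.48 ± 0.36 SE) and Dusp19 (0.16 ± 0.14 SE). All 3 tested probe sets of Dusp3, which acts on ERK and JNK, were lower in every ZnR mouse than in any control, and they measured -0.61, -0.21 and -0.13.

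The Sprouty and Spred inhibitors, which brake the ERK pathway further upstream, gave 0 of 7 past the threshold and a median of -0.11, with -0.25 for Spry4, -0.14 for Spred2 and 0.18 for Spry1. Effectors and ETS targets of ERK gave 0 of 15 and a median of 0.11. There the kinase genes Rps6ka6 (0.51 ± 0.12 SE, limma adjusted p = 0.081) and Rps6ka5 (0.34 ± 0.10 SE, limma adjusted p = 0.14) were higher in every ZnR mouse, and Ets2 measured 0.19. Growth factor receptors and Ras regulators gave 0 of 16 and a median of 0.03, with Egfr at 0.35, Fgfr1 at 0.35 and Fgfr2 at 0.31. For Egfr another tested probe set, 1460420_a_at, went the other way (-0.16). In the activity list 3 of 23 fell and 20 did not pass, with 21 lower and 2 higher on average and a median of -0.18. The 3 were Bdnf, which encodes a neurotrophin that signals through ERK (-1.19 ± 0.10 SE, limma adjusted p = 0.00624), the nuclear receptor gene Nr4a2 (-1.20 ± 0.19 SE, limma adjusted p = 0.0368) and Ptgs2, which encodes a cyclooxygenase (-0.98 ± 0.18 SE, limma adjusted p = 0.04999). The call count of this list was 1 without control mouse 1, control mouse 9 or any single ZnR mouse, and 0 without control mouse 5.

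**Figure D5:**
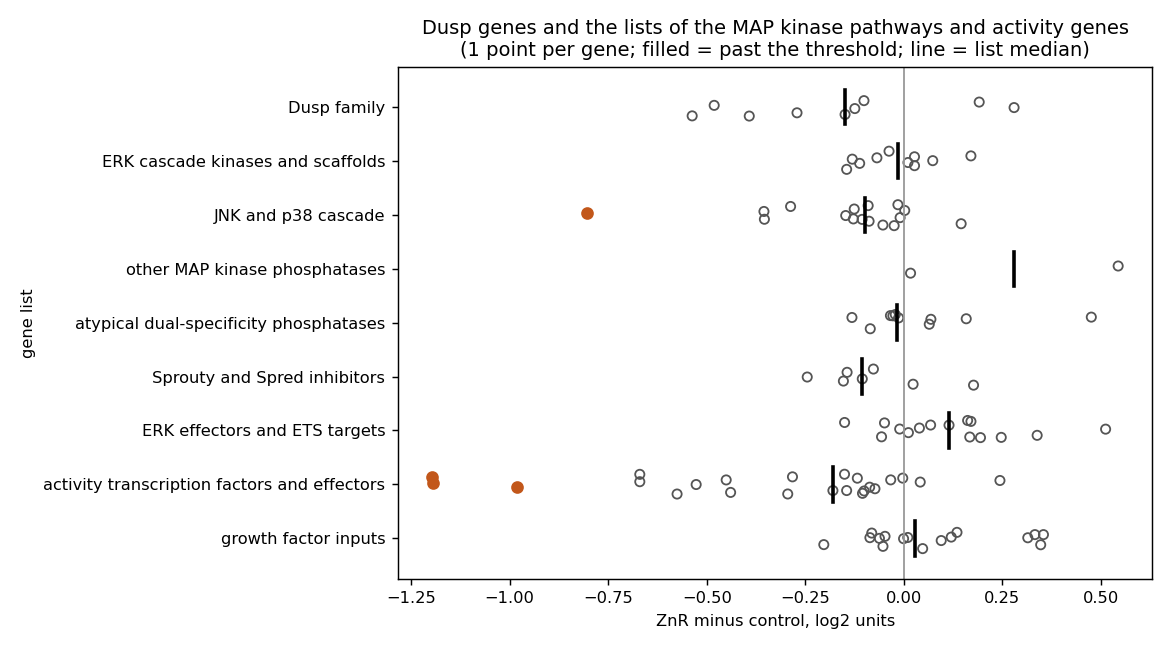
Difference by diet (x axis, ZnR minus control in log2 units) of each Dusp gene and of each measured gene of the 8 pathway and activity lists, with 1 point per gene by its probe set of highest mean, vertical scatter for legibility alone, filled points past the adjusted threshold and black lines for list medians. The 4 filled points are Mapk11, Bdnf, Nr4a2 and Ptgs2, and no Dusp gene is filled.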

How the data were processed

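Total RNA (500 ng per mouse) was labelled with biotin for Affymetrix Mouse430_2 arrays, as the labels' protocols state. The table the authors deposited gives a log2 value for each probe set in each of the 6 mice, and GCRMA 2.28.0 under R 2.15.1 is listed, per the submitters' processing notes. GCRMA equalises quantiles between arrays, so a change of total RNA is invisible, and low values are compressed. Every array is a separate mouse, and their number limits the precision.

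Probe sets with log2 above 4 on at least 3 of 6 arrays were kept, the 64 array controls left out, and 25381 tested 2-sided in limma 3.58.1 (R 4.3.3; lmFit, eBayes) with Benjamini-Hochberg adjustment over all of them. Lists used each gene's kept single-symbol probe set of highest mean. Named genes were the 9 members, list genes past the threshold, the 3 smallest p per list, and the 2 nearest profiles of the 3 most variable members. Symbols follow the platform annotation, updated through a GRCm38.p6 gene table. The members, lists and tests were chosen with earlier results of these data known. The test was also run on data simulated from the real means and spread for the 25381 probe sets. There 15 of 50 changes of 0.5 and 41 of 50 changes of 1 were recovered. The probe sets given no change gave 4 false calls. Alternatives covered the level filter, renormalization, prior variance, array weights, the low-18S block, left-out mice, a minimum fold and gene averages; leaving out the whole low-18S pair was added after seeing the data. Figures used matplotlib 3.10.9 under Python 3.11.15.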

Additional observations from a re-analysis of the deposited data

How the results depend on the processing

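The labels name no pairs of mice, so no paired analysis was run. In control mice 1, 5 and 9 the 18S signal rose in that order (9.09, 11.4 and 12.4). In ZnR mice 3, 7 and 11 it also rose in order (8.44, 10.9 and 11.5). The labels do not say whether mice of neighbouring numbers were handled together. None of the Dusp probe sets passed without a level filter or with one at 6, after quantile normalization, with a trended or robust prior, with the low-18S pair blocked or left out, against a minimum fold of 1.2, or with any mouse left out. The exception was array weights, under which 2 passed, Dusp7 1427416_x_at (-0.56, adjusted p = 0.0213) and Dusp10 1417164_at (0.33, adjusted p = 0.0334); the cause was not tested. Averaging probe sets per gene gave 0 Dusp genes. Over all probe sets the 373 calls became 916 with a trended prior, 2003 with array weights, 17 against the minimum fold, 1 without the low-18S pair and 1 to 109 with a mouse left out. The 4 calls of the pathway and activity lists became 8 with gene averages and 0 to 2 with a mouse left out. With a mouse left out, direction turned for Dusp14 (range -0.469 to 0.043; ZnR mouse 11) and Dusp8 1428864_at (range -0.197 to 0.052; ZnR mouse 7, ZnR mouse 11 or control mouse 1); the cause was not tested. The other 187 of 193 alternative values of single Dusp probe sets kept direction and side of the threshold. With the block, adjusted p was 0.0614 for Dusp7 1427416_x_at and 0.0872 for Dusp6.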
